A study of Mus musculus with 6 samples.

Results

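The fibroblast growth factor (FGF) genes examined here were 10 named genes of the 29616 in the expression table: 5 receptor genes (Fgfr1, Fgfr2, Fgfr3, Fgfr4 and Fgfrl1) and 5 ligand genes (Fgf2, Fgf7, Fgf9, Fgf18 and Fgf21), chosen by name. Their Ensembl identifiers are ENSMUSG00000031565 (Fgfr1), ENSMUSG00000030849 (Fgfr2), ENSMUSG00000054252 (Fgfr3), ENSMUSG00000005320 (Fgfr4), ENSMUSG00000008090 (Fgfrl1), ENSMUSG00000037225 (Fgf2), ENSMUSG00000027208 (Fgf7), ENSMUSG00000021974 (Fgf9), ENSMUSG00000057967 (Fgf18) and ENSMUSG00000030827 (Fgf21). They were measured by stranded mRNA sequencing of bone cells from C57BL/6 mice in 2 groups. Control mice gave 3 libraries, and 3 came from mice dosed each day over 4 weeks, from an age of 8 weeks, with dexamethasone (0.08 µg/g), a drug that activates the glucocorticoid receptor. The control mice are listed with the same starting age and duration. The study describes the cells as osteocalcin-positive cells taken from bones after the marrow was removed, and the labels name them only as bone cells. No allele or transgene is named for these mice, the agent given to the control mice of the sequencing is not stated in the sources used here, and neither is whether a library came from 1 animal or a pool. The replicates are described as biological.

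FGF ligands bind receptor tyrosine kinases on the cell surface together with heparan sulfate, and the active receptor signals through the adaptor Frs2 and the RAS-MAPK relay, which in turn switches on its own inhibitors (the Sprouty, Spred and Dusp genes) and the Etv transcription factors. In the skeleton Fgfr1 and Fgfr2 act in osteoblasts and their progenitors, Fgfr3 restrains the growth of cartilage, and Fgf2, Fgf9 and Fgf18 are ligands of bone and cartilage. Fgf7 signals mainly to the epithelial splice form of Fgfr2, and Fgf21 is a hormone of the liver that needs the co-receptor beta-Klotho. Gene-level counts cannot separate the splice forms of a receptor.

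Reads per library totalled 72596611 to 89910728. Of 10 osteoblast markers, 10 were tested and 7 fell and 2 (Spp1 and Dmp1) rose with dexamethasone. For these lists, rose and fell count only calls, as defined in the next paragraph. Bglap, an osteocalcin gene, had 98.2 to 122 normalized counts (reads divided by a library's size factor) in control libraries and 9.54 to 15.1 with dexamethasone. Counts assigned to this gene were thus few, although the study describes the cells as positive for the protein. The summed level of 12 proliferation genes was 47730 to 51247 in control libraries and 298665 to 313532 with dexamethasone, and all 12 rose. Of the chondrocyte list 4 of 10 genes were tested, of which 2 rose (Sox9 and Col2a1) and 2 fell, with sums of 6377 to 6831 and 22258 to 25114, while Acan, Col9a1 and Matn1 stayed at or below 6.54 normalized counts in every library. Of the smooth muscle and pericyte list 3 of 7 tested genes fell and 0 rose, with sums of 150334 to 158290 and 22873 to 24384. Acta2 made up most of the control sum, with means of 144918 in control and 12449 with dexamethasone. Cspg4, the next most abundant, went up from 7548 to 10185 (log2 difference 0.43, no call). By the adjusted p of limma alone 4 were lower and 1 higher. Endothelial markers summed to 391 to 430 and 487 to 522, and 1 of 5 tested rose (Esam, log2 difference 1.20, at 11 to 34 reads). Kdr made up most of both sums, with means of 348 and 414 (log2 difference 0.25, no call). By the adjusted p of limma alone 3 passed (Esam, Kdr and Pecam1), all higher, where 72.5% of all genes passed. Cdh5 had 0 to 2 reads. Blood cell markers summed to 1135 to 1183 and 1159 to 1230 (2 rose and 3 fell of 6 tested, Ptprc at 2 to 5 reads). These similar sums held opposite changes. Cd53 rose from a mean of 15.7 to 283 and Itgb2 from 54.6 to 503, while Lyz2 fell from 996 to 351, Coro1a from 20.4 to 6.79 and Laptm5 from 19.2 to 6.41. Adipocyte markers summed to 275 to 357 and 1920 to 2066 (1 of 3 tested rose, Fabp4, from a mean of 2.16 to 1448, with Adipoq at 1 to 9 reads). Tendon and fibroblast markers summed to 9582 to 10563 and 13272 to 14030 (1 rose and 1 fell of 5 tested). Pdgfra rose from a mean of 2600 to 7787, and the tendon marker Scx fell from 1206 to 151 (log2 difference -2.99). Ly6a was at 5415 and 4482 (no call). By the adjusted p of limma alone 2 genes of this list were higher and 2 lower. Emcn and Cldn5 of the endothelial list and Tnmd and Thbs4 of the tendon and fibroblast list were absent from the expression table and could not be counted. Osteoblast markers summed to 2008761 to 2137494 and 2010772 to 2142718, with Spp1 going from a mean of 33595 to 1279674 and Col1a1 from 961923 to 261192. The sums differed between the groups without overlap, except those of the osteoblast and blood cell markers. The part of these lists in the results below was not tested.

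A call required an adjusted p under 0.05 by limma, adjusted over the 17442 genes whose mean reached 10 normalized counts, and a log2 difference of at least 1. Of the 10 FGF genes 7 reached that mean. Of these 7, 5 were called, against 22.3% of all genes tested. Fgf2 was called higher (11.7% of all genes were) and Fgfr2, Fgfr3, Fgf7 and Fgf18 were called lower (10.6% of all genes were). By the adjusted p alone 7 of 7 passed, but so did 72.5% of all genes, and 6 of 7 had groups that did not overlap, against 74.7% of all genes, so neither of those counts sets the FGF genes apart. The FGF genes and the pathway lists below were chosen with earlier results of these data known. Their shares of calls therefore describe them and test nothing. Fgf18 reached the mean only through its control libraries. In cells taken in bulk, fewer cells of a type and less RNA per cell cannot be told apart.

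**Figure D1:**
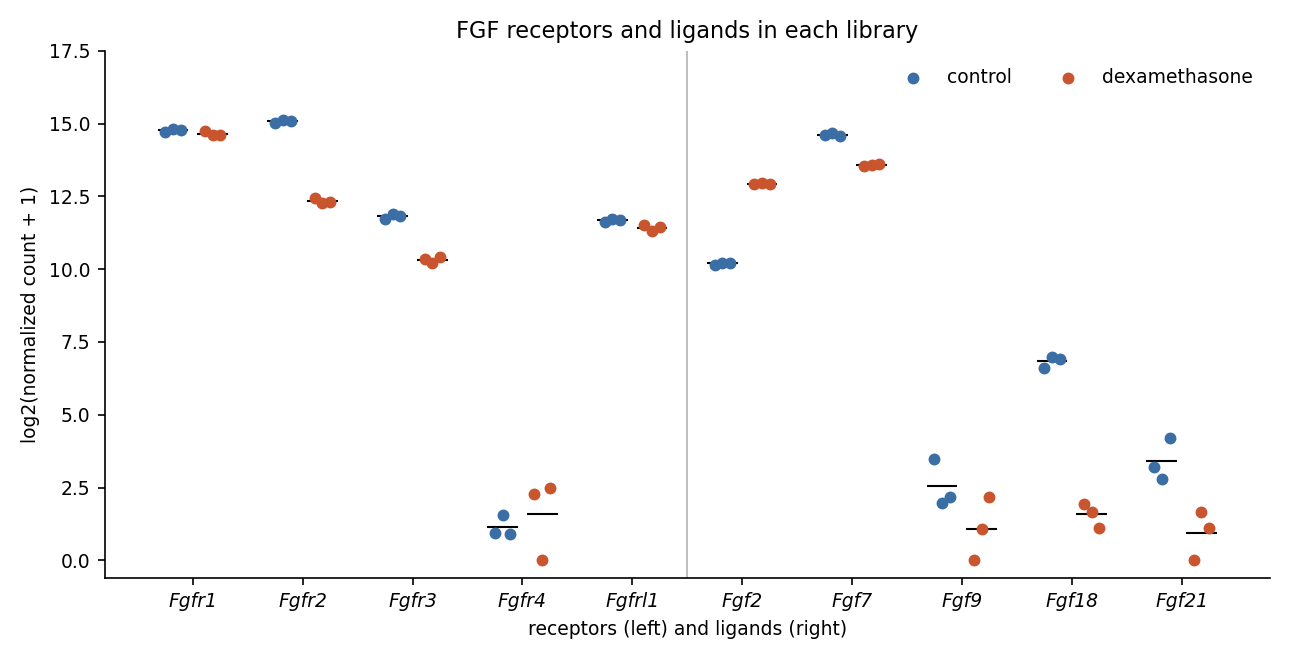
Log2 of the normalized count plus 1 (vertical axis) of the 10 FGF genes, receptors left and ligands right, in the 3 control (blue) and 3 dexamethasone (orange) libraries. Each point is 1 library and each short black line the mean of its group on the log scale. The groups stand furthest apart for Fgf18, Fgfr2 and Fgf2, while the points of Fgfr1 overlap and Fgfr4, Fgf9 and Fgf21 lie near the bottom of the scale.

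The receptor that fell most was Fgfr2, which acts in the progenitors of osteoblasts. Control libraries held 33469, 35673 and 34739 normalized counts of Fgfr2 and dexamethasone libraries 5609, 4900 and 5012. Every treated library lay far below every control library. The means, 34627 ± 1107 and 5173 ± 381 (SD, n = 3 libraries each), differed 6.69-fold, a log2 difference of -2.74 (SE 0.0429, adjusted p = 1.59e-25 by limma). Of the exonic bases of Fgfr2, 3.04% are shared with Ctbp2 on the same strand, which had 2369 normalized counts in control and 4019 with dexamethasone, the opposite direction.

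Fgfr3, the receptor that limits cartilage growth, also fell. It had 3390.4, 3803 and 3642 normalized counts in control libraries and 1300.2, 1184 and 1356 with dexamethasone, again without overlap. The difference was 2.82-fold (3612 ± 208 against 1280 ± 87.8, SD, n = 3), or -1.50 on the log2 scale (SE 0.0519, adjusted p = 1.73e-18 by limma). The only antisense overlap, 13.9% of the exonic bases of Fgfr3 with G630022F23Rik, involves a gene at 4.03 normalized counts in control and 2.28 with dexamethasone.

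Fgfr1, the other main receptor of the osteoblast lineage, was near its control level. Its normalized counts were 27074, 28625 and 28134 in control libraries and 27146, 25015 and 24945 with dexamethasone, and the first treated library lay inside the control range. The log2 difference was -0.12 (95% confidence interval -0.20 to -0.0406) with an adjusted p of 0.00769 by limma and was not a call. An exact two-sided permutation test of the 3 against 3 libraries gave p = 0.2, where 0.1 is the smallest value possible. The adjusted p of Fgfr1 was 0.0746 by limma without a mean trend, where the difference was again -0.12, and 0.0542 without dexamethasone replicate 3, where it was -0.10. The other alternatives kept the adjusted p under 0.05, with differences from -0.25 to -0.10.

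Fgfrl1 encodes a receptor that binds FGFs but lacks the kinase. It had 3182, 3393 and 3283 normalized counts in control libraries and 2947, 2548 and 2769.7 with dexamethasone, slightly lower in each treated library. At -0.26 on the log2 scale (95% confidence interval -0.35 to -0.16, adjusted p = 3.27e-05 by limma) it passed the p threshold but was no call. Fgfr4, a receptor of liver and muscle, was close to absent, with 1, 2 and 1 reads in control libraries and 4, 0 and 4 with dexamethasone. The ratio of its reads, dexamethasone over control and corrected for depth, was 2.30 with an exact 95% counting interval of 0.616 to 10.4, so a change was not detectable at this depth.

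Together the signalling receptors Fgfr1 to Fgfr4 had a summed level per length of 6456, 6885 and 6722 normalized counts per kb of exon in control libraries and 3475, 3173 and 3202 with dexamethasone. The sum was therefore 2.04-fold lower. Fgfr2 made up 50.1% ± 0.0821 of this sum in control libraries (SD, n = 3) and 15.2% ± 0.348 with dexamethasone. The share of Fgfr1 went the other way, from 42.3% ± 0.190 to 79.3% ± 0.495, although its own level hardly moved. Fgfr3 held 7.54% ± 0.192 and 5.45% ± 0.402, and Fgfr4 0.00524% and 0.024%. The libraries of the 2 groups did not overlap in the sum or in the shares of Fgfr1, Fgfr2 and Fgfr3, each with p = 0.1 in the exact two-sided permutation test, the smallest value that 3 against 3 libraries allow. With the longest coding transcript in place of all exons, a choice made after seeing the data, the share of Fgfr2 went from 55.7% to 18.2% and that of Fgfr1 from 38.4% to 77.2%.

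**Figure D2:**
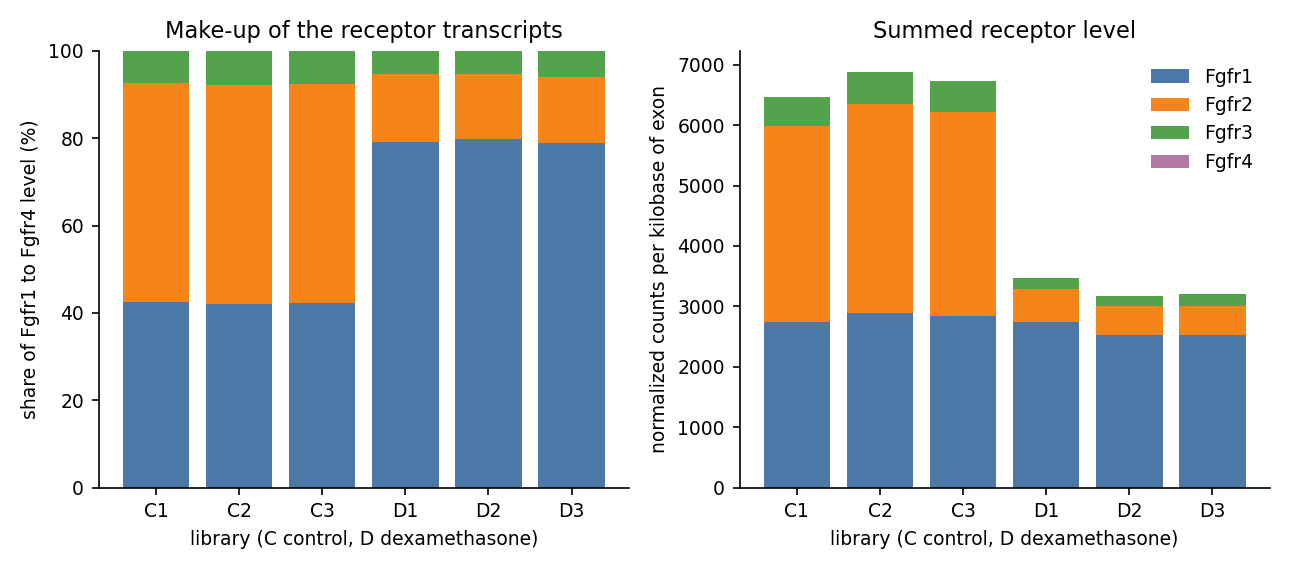
Share of each signalling FGF receptor in the summed level per kb of exon, for each of the 6 libraries, and that sum itself in normalized counts per kb. Fgfr1 takes 78.9% to 79.8% in the treated libraries against 42.1% to 42.5% in control libraries, and Fgfr4 is too small to be seen.

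Ratios of receptors within a library hardly depend on how libraries are scaled. The log2 ratio of Fgfr2 to Fgfr1 was lower by 2.62 with dexamethasone (difference -2.62), that of Fgfr3 to Fgfr1 differed by -1.38, and that of Fgfrl1 to Fgfr1 by only -0.13. Against Fgfr2, both Fgfr3 (1.25) and Fgfrl1 (2.49) gained, and Fgfrl1 also gained on Fgfr3 (1.24). All 6 pairs had an exact two-sided permutation p of 0.1 and an adjusted p of 0.1 over the 6 pairs, again the smallest possible.

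Among the ligands tested, only Fgf2 rose. This classic growth factor of mesenchymal progenitors had 1139, 1182 and 1196 normalized counts in control libraries and 7817, 7946 and 7805 with dexamethasone. Within each group the 3 libraries were nearly equal. The mean rose 6.70-fold, from 1172 ± 29.5 to 7856 ± 78.4 (SD, n = 3), or 2.74 on the log2 scale (SE 0.0394, adjusted p = 3.49e-26 by limma). Of the exonic bases of Fgf2, 9.44% lie opposite and 3.76% on the same strand as exons of other genes (Nudt6 and Gm43439). Nudt6, the antisense partner of Fgf2, had 66.8 ± 16.9 and 112 ± 13.2 normalized counts, far fewer than Fgf2 in either group.

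Fgf7, also called keratinocyte growth factor and made by mesenchymal cells, fell by little more than a call requires. It had 24972, 26125 and 24332 normalized counts in control libraries and 11886, 12107 and 12458 with dexamethasone, with a wide gap between the groups. The mean was 2.07-fold lower (25143 ± 909 and 12150 ± 289, SD, n = 3), a log2 difference of -1.05 (SE 0.0364, adjusted p = 1.74e-18 by limma), and lay between -1.20 and -1.02 over the alternatives tried.

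Fgf18, a ligand of osteoblasts and growing cartilage, was nearly undetected with dexamethasone. Its reads numbered 106, 128 and 136 in control libraries and 3, 2 and 1 with dexamethasone. The normalized counts, 114 ± 14.8 and 2.07 ± 0.855 (SD, n = 3), gave a log2 difference of -5.26 (SE 0.331, adjusted p = 3.51e-13 by limma). With so few treated reads the size is loose: the depth-corrected ratio of reads, control over dexamethasone, was 53.6 with an exact 95% counting interval of 24.4 to 147, and the log2 difference ran from -5.76 to -4.07 over the alternatives. Intervals of this kind cover counting error only.

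Fgf9 and Fgf21 lay below the mean of 10 normalized counts and were not tested across genes. Fgf9 had 11, 3 and 4 reads in control libraries and 0, 1 and 3 with dexamethasone, and control replicate 1 held most of them. Its read ratio, control over dexamethasone, was 3.91 (exact 95% counting interval 1.29 to 15.9), but the groups overlapped and the exact permutation p was 0.2. Fgf21 had 9, 6 and 20 reads in control libraries and 0, 2 and 1 with dexamethasone. These groups did not overlap (ratio 10.1, interval 3.20 to 51.6, exact permutation p = 0.1), and when no minimum was set Fgf21 was called at -2.48 (adjusted p = 0.00123 by limma). Klb, the gene of beta-Klotho, had 10 to 26 reads in the 6 libraries, and Kl, the gene of alpha-Klotho, 0 to 2.

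Per kb of exon, the order of levels in control libraries was Fgf7 (mean 7741 normalized counts per kb), Fgfr2 (3353), Fgfr1 (2830), Fgfrl1 (1181), Fgfr3 (505), Fgf2 (173), Fgf18 (96.1), Fgf21 (11.1), Fgf9 (1.19) and Fgfr4 (0.353), and no neighbours in this order overlapped across libraries. With dexamethasone it was Fgf7 (3741), Fgfr1 (2603), Fgf2 (1158), Fgfrl1 (990), Fgfr2 (501) and Fgfr3 (179), again without overlap. The other 4 genes, Fgf18 (1.74), Fgf21 (1.17), Fgfr4 (0.797) and Fgf9 (0.328), could not be ordered beyond their spread. Fgf2 thus moved from below Fgfr3 to above Fgfr2, while Fgf7 stayed the most abundant ligand. On the longest coding transcript the treated libraries placed Fgfr1 above Fgf7, and Fgfr2 overlapped with Fgfrl1.

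**Figure D3:**
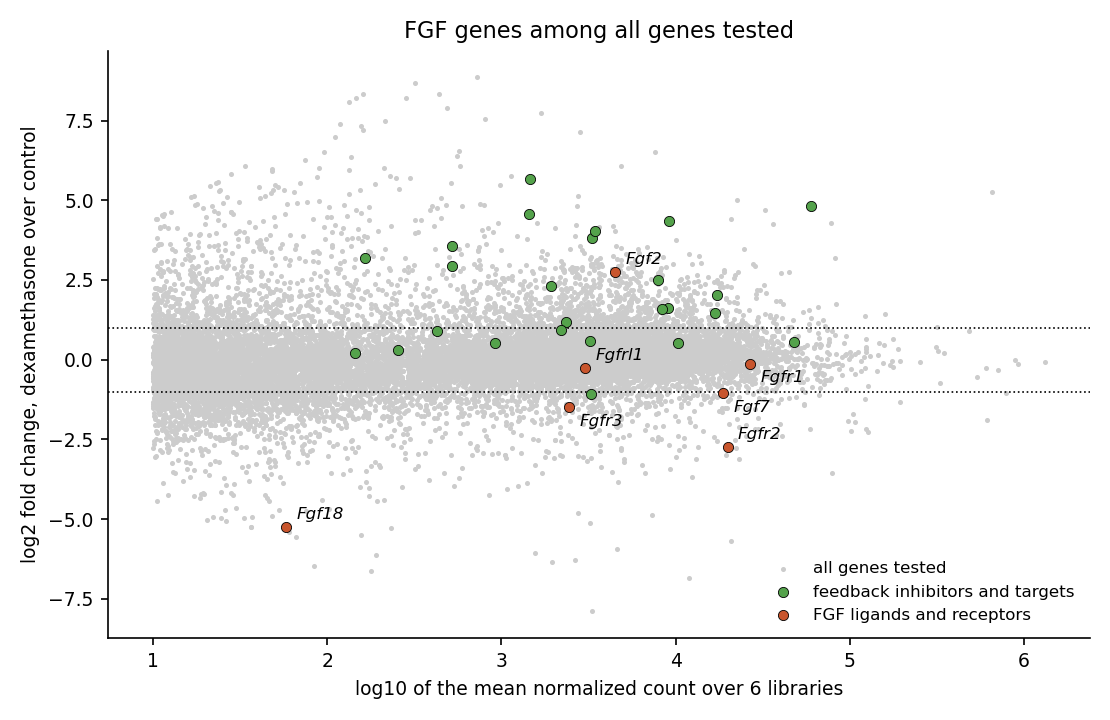
Log2 difference (dexamethasone minus control) against mean level for the 17442 genes tested, plotted as log10 of the mean normalized count over 6 libraries, with the 7 tested FGF genes in red and the tested feedback inhibitors and transcriptional targets in green. Dotted lines mark the log2 threshold of 1 in each direction. Fgf2 sits at 2.74 and Fgfr2 at -2.74, while Fgfr1 lies close to 0.

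The sequence before the start of a gene is where factors such as the glucocorticoid receptor can bind. RefSeq promoter windows, 250 bases before the start on GRCm38.p6, matched 9 of the 10 FGF genes, Fgfr3 with 2 windows. The entry for Fgfr1 is missing. Each window was searched on both strands for the hexamer of the glucocorticoid receptor (AGAACA or TGTTCT), for the inverted repeat of 2 hexamers (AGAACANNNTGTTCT, which contains the single one), for the RUNX core (TGTGGT) and for the GC box of Sp factors (GGGCGG, whose matches may overlap one another). Windows of the 4 genes that changed by a call and matched the table with a single window are shown 5′ to 3′, with GC boxes in capitals.
Fgfr2 (chr7:130266809-130267058, minus strand): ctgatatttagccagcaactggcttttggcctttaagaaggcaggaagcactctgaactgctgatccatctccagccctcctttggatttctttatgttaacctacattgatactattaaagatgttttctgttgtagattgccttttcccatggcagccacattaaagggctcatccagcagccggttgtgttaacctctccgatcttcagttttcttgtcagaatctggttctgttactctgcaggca
Fgf7 (chr2:126034408-126034657, plus strand): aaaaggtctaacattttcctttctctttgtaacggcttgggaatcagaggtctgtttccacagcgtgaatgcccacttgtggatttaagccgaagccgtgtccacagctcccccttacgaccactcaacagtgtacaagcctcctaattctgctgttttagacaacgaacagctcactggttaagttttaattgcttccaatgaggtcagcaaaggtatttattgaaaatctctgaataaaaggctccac
Fgf18 (chr11:33147401-33147650, minus strand): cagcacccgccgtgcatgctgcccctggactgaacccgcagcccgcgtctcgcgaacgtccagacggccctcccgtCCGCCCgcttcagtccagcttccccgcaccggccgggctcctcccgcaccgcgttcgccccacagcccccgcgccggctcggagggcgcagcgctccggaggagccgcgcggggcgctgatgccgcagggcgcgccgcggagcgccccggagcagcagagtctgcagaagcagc
Fgf2 (chr3:37348403-37348652, plus strand): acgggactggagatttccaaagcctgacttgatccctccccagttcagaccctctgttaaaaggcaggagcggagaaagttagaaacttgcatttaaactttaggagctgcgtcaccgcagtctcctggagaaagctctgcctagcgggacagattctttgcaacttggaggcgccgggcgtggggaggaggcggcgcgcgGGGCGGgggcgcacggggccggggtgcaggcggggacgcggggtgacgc
The windows of Fgfr2 and Fgf7 are poor in G and C (44% and 43.6%, against a median of 52.4% over 32851 promoters) and hold 0 GC boxes, whereas those of Fgf2 (62.4%) and Fgf18 (77.2%) hold 1 each. The hexamer was in 0 of 10 windows and in 16.1% of all promoters, the inverted repeat in 0 and 0.00913%, and the RUNX core in 0 and 14%. GC boxes were in 7 of 10 windows, those of 6 genes, and in 32.7% of all promoters. A match describes letters only, and no match says nothing about binding elsewhere.

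The other genes of the pathway were counted in 6 lists of 102 genes by role, of which 77 were tested and 26 called, 20 higher and 6 lower, where 22.3% of all genes tested were called, 11.7% higher and 10.6% lower. Of 17 other FGF ligands, 8 were in the table and 9 were not analysed here. Of the 3 tested, 0 rose and 1 fell, with a list median of -0.82 on the log2 scale against 0.00071 over all genes. Fgf11, an intracellular relative of the FGFs that does not act on their receptors as the secreted ligands do, went from 126 ± 12.2 to 38.4 ± 4.57 normalized counts (-1.69, adjusted p = 4.68e-09 by limma). Fgf17 had 44.7 ± 14.2 and 25.3 ± 11.1 (-0.82, adjusted p = 0.015 by limma), no call. Without 1 library its difference ran from -0.60 to -1.15. It became a call without control replicate 2 (-1.05) or dexamethasone replicate 2 (-1.15), and its adjusted p by limma was 0.117 without control replicate 1, 0.0653 without dexamethasone replicate 1, 0.0522 without dexamethasone replicate 3 and 0.0952 without a mean trend.

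The co-receptors and FGF-binding proteins changed in both directions. Of 15 tested, 3 rose and 3 fell by a call (median -0.63), where 11.7% and 10.6% of all genes did. By the adjusted p of limma alone 14 passed, 4 higher and 10 lower, where 72.5% of all genes passed. Gpc1, a membrane-anchored heparan sulfate proteoglycan, fell from 171336 to 44265 normalized counts (log2 difference -1.95), and the transmembrane proteoglycan Sdc2 from 45299 to 19440 (-1.22). Its relatives went up, Sdc4 from 7156 to 34653 (2.28) and Sdc1 from 10585 to 22195 (1.07). The call of Sdc1 was lost when libraries were set to the same total (0.95) or quantile normalized (0.88). Ncam1, an adhesion molecule that can bind FGF receptors, rose from 6399 to 22103 (1.79), and Flrt3, a membrane protein that associates with them, fell from 2125 to 841 (-1.34). Perlecan, Hspg2, was at 88802 and 82169 (-0.11, adjusted p = 0.0266 by limma), no call.

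Of the genes that make and edit heparan sulfate, 11 of 16 were tested, 1 rose and 1 fell (median -0.13). That share is near the 22.3% of all genes called, so the count is no result about these genes. Ext1, which lengthens the sugar chain, rose from 6007 to 13270 normalized counts (1.14, or 0.95 and no call after quantile normalization). Its partner Ext2 was at 15557 and 12149 (-0.36, no call). Sulf2, which removes sulfate groups from the chain outside the cell, fell from 62717 to 27390 (-1.20). The adaptors and the RAS-MAPK relay had 0 calls among 23 tested, with a median of 0.05. By the adjusted p of limma alone 18 passed, 10 higher and 8 lower, a share near the 72.5% of all genes, 18 also had an unadjusted p under 0.05, and edgeR and DESeq2 on recovered reads also made 0 calls. Crk, an adaptor and among the most abundant genes of the list, differed by 0.35 on the log2 scale and was no call. Quantile normalization gave 1 call, Gab1, an adaptor of receptor tyrosine kinases named after its value was seen, at -1.003 against -0.86.

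**Figure D4:**
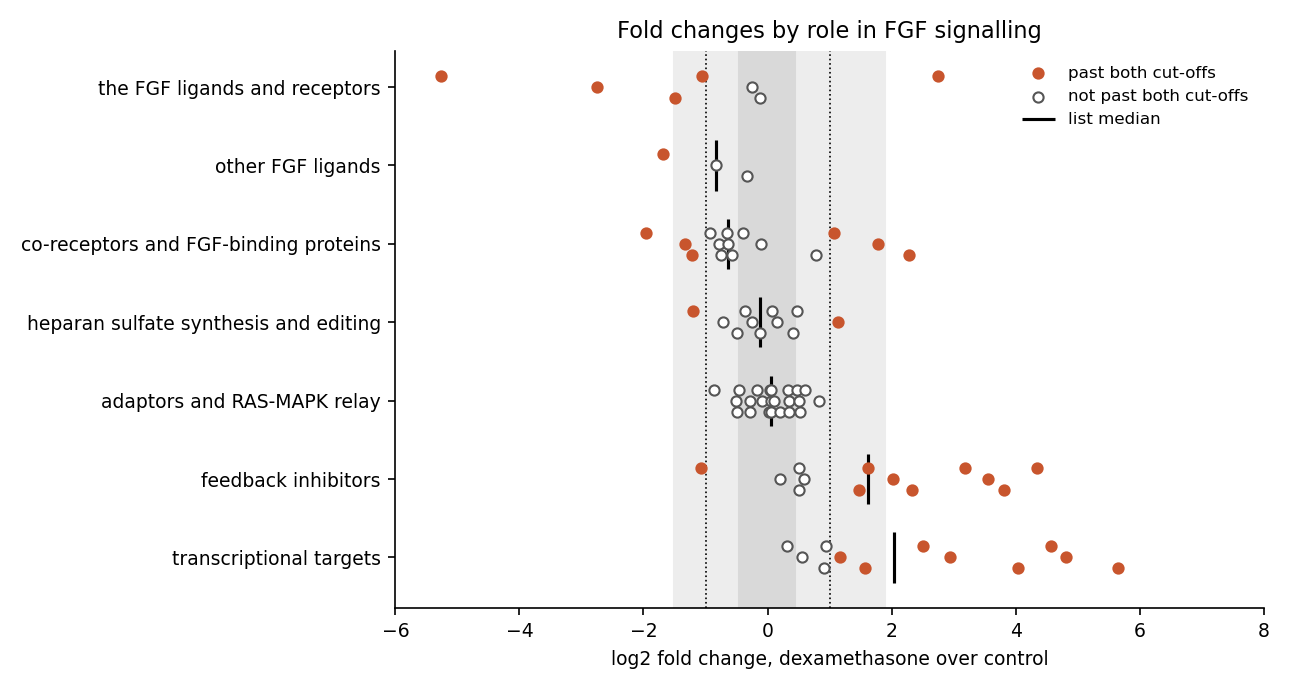
Log2 difference (dexamethasone minus control) of each tested gene, grouped by role in FGF signalling. Filled points are calls, open points are not, vertical bars are medians of the 6 pathway lists, dotted lines mark the threshold of 1, and the grey bands run over the 25th to 75th and the 5th to 95th percentile of all genes tested (-0.45 to 0.44 and -1.51 to 1.89). Points of the feedback inhibitors and the transcriptional targets lie mostly to the right of 0, and those of the relay stay near it.

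Feedback inhibitors mostly rose. Of 13 tested, 8 rose and 1 fell, with a median of 1.62, where 11.7% of all genes rose and 10.6% fell. Dusp6, the phosphatase that switches off ERK in the cytoplasm, had 872, 849 and 848 normalized counts in control libraries and 17730.1, 17042 and 17542 with dexamethasone, a 20.4-fold rise (4.35, SE 0.0376, adjusted p = 3.59e-30 by limma). The nuclear phosphatases Dusp5 (444 to 6224, log2 3.804) and Dusp4 (82.6 to 965, 3.55) went the same way. Of the Sprouty genes, Spry4 rose from 32.1 to 299 (3.18) and Spry2 from 638 to 3207 (2.32), and of their relatives Spred2 from 4476 to 13740 (1.62) and Spred1 from 8939 to 24814 (1.47). Spry1 was at 134 and 154 (0.20, adjusted p = 0.181 by limma), no call, and Spry3 was absent from the expression table. Rasa1, which turns RAS off, rose from 6845 to 27836 (2.02). The only call in the other direction was Lrig3, a membrane protein of a family that limits receptor tyrosine kinases, which fell from 4433 to 2112 (-1.07). Spred3 (0.51), Il17rd (0.59) and Cbl (0.51) were no calls.

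Transcriptional targets of the pathway rose as well: 8 of 12 tested were called higher and 0 lower, with a median of 2.04, where 11.7% of all genes were called higher. By the adjusted p alone 12 of 12 passed, all with a positive difference, where 72.5% of all genes passed in either direction. Etv4 went from 67.9, 55.8 and 45.7 normalized counts in control libraries to 2983, 2807 and 2794 with dexamethasone, a 50.7-fold rise (5.66, SE 0.102, adjusted p = 2.30e-24 by limma). Its sister factors Etv5 (395 to 6527, log2 4.04) and Etv1 (120 to 923, 2.95) also rose. Among the early response genes, Fosl1 rose from 116 to 2765 (4.56), Egr1 from 2379 to 13524 (2.51), Jun from 4199 to 12565 (1.58) and Ier2 from 1446 to 3264 (1.17). Fos, at 228 and 283 (0.31), was no call, and neither were Ier3 (0.94) and Phlda1 (0.90). Hmga2, a chromatin protein of growing mesenchymal cells, had the largest treated mean of the list, 115187 against 4083 (4.82). Ccnd1, a cyclin of the cell cycle, was at 38739.7 and 56809 (0.55) and no call. Many of these genes answer to any signal that runs through RAS and MAPK, not to FGF alone. The 12 proliferation genes given above rose in the same libraries, and their part in these counts was not tested.

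**Figure D5:**
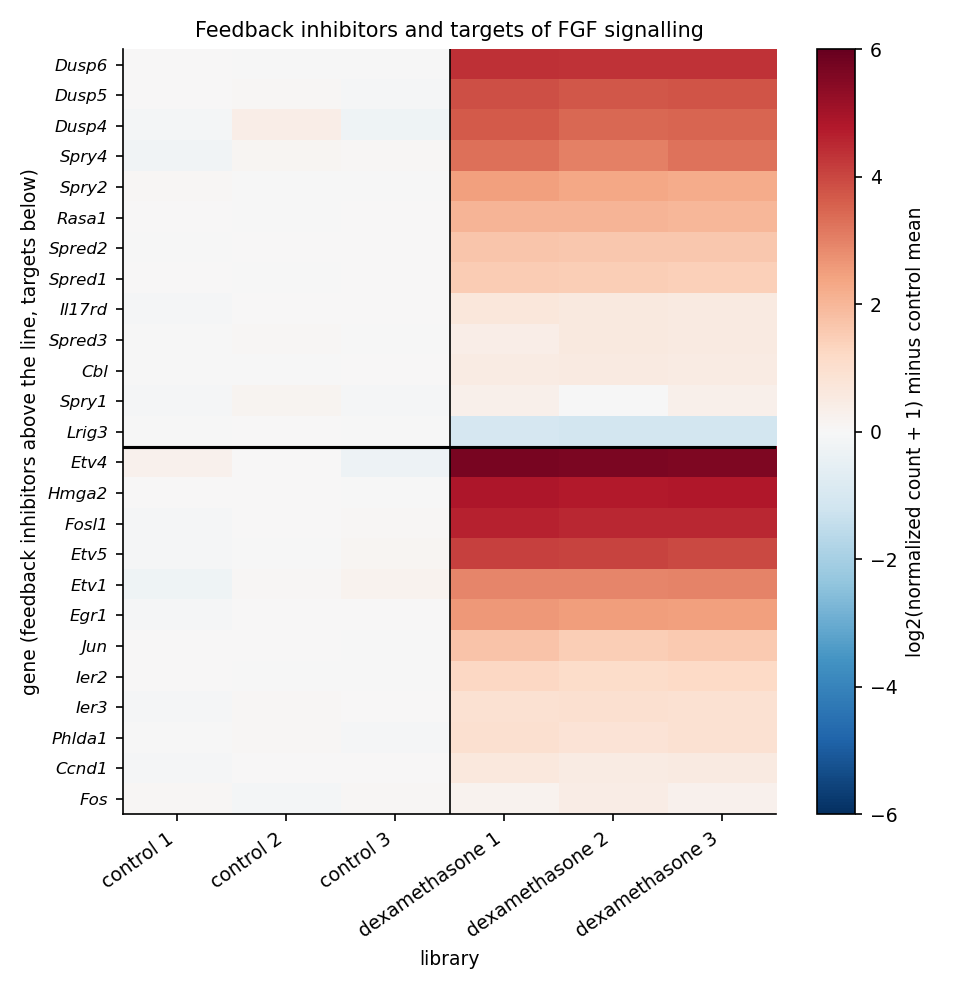
Colour map of the 13 tested feedback inhibitors (above the line) and 12 transcriptional targets (below it), with 1 column for each library. Colour gives log2(normalized count + 1) minus the control mean of that gene, red above and blue below it. The treated columns are deepest red for Etv4, Hmga2 and Fosl1, and Lrig3 is the blue row.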

How the data were processed

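Normalized read counts of 29616 genes were deposited for 3 control and 3 dexamethasone libraries. Per the labels and their processing notes, the authors ran bcl2fastq, STAR 2.7.10a, the GRCm39 genome and DESeq2 1.36.0. The annotation release and strand setting are not given in the sources used here. The deposited signal is read count divided by a size factor, since 100% of values came back as whole reads within 0.01 read. The limma test (3.58.1, mean trend) ran on log2(normalized count + 1) for the 17442 genes with a mean of at least 10, adjusted by Benjamini-Hochberg over all of them, so fold changes of low genes are understated. edgeR 4.0.16 and DESeq2 1.42.0 on recovered reads were alternatives. Members and lists were chosen with earlier results of these data known, and the pathway genes named were all called genes of each list and its 2 most abundant tested genes, of which 1 is not reported here. Symbols, exon lengths and overlaps came from GENCODE M21 (GRCm38), which named 28087 genes. Ratios of members under the minimum carry an exact conditional binomial interval. Replicate numbers did not pair the libraries (correlations -0.0999, -0.105 and -0.0199), and replicates differed beyond counting noise (chi-square per degree of freedom 3.27 to 26.1).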

Additional observations from a re-analysis of the deposited data

How the results depend on the processing

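Of the 7 tested FGF genes, 118 values over the alternatives kept their direction and stayed a call or no call, and 0 reversed, although the adjusted p of Fgfr1 passed above 0.05 in 2 of them. The count of FGF genes called stayed between 4 (mean of at least 100, where Fgf18 gave no value) and 7 (adjusted p alone), and was 5 without each replicate in turn. All genes called numbered 3894 in the reported analysis, 2170 (1350 higher, 820 lower) with a mean of at least 100 and 12645 (6497 and 6148) by the adjusted p alone, and 3888 to 3922 without a replicate. Pathway calls were 26, 68 (41 and 27) by the adjusted p alone, and 26 to 27 without a replicate. The causes were not tested beyond the looser or stricter rule itself. With the replicate block, 5 FGF genes, 26 pathway genes and 3897 genes in all were called, and no call of an FGF gene changed. Setting libraries to the same total shifted the median of all genes by -0.11 on the log2 scale and quantile normalization by -0.0746. Gpc4, named after its value was seen, was then called at -1.03 and -1.13 against -0.92. Depth limits Fgfr4, Fgf9, Fgf21 and treated Fgf18, each resting on 20 reads or fewer per library.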
